A study of Mus musculus with 12 samples.

Results

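The S100 genes encode calcium-binding proteins of a single family, and 9 of them that are transcribed in mouse skin were described here by name: S100a4, S100a6, S100a7a, S100a8, S100a9, S100a10, S100a11, S100a14 and S100a16. They were taken by gene symbol from a table of 36400 genes, in which 17 S100 genes were listed, and all 9 were among the 21890 genes that passed the filter on low values. RNA was measured in dorsal skin of female BALB/c mice, an inbred albino strain, that were 6 weeks old when obtained, in 4 groups of 3 libraries each. Control mice received the solvent alone, a mixture of acetone and olive oil, on shaved and depilated skin. DNCB mice were sensitized with 1% and challenged with 0.5% 1-chloro-2,4-dinitrobenzene, a contact allergen that produces lesions resembling atopic dermatitis. The scMSC and scivMSC mice received the same allergen and, in addition, 4 injections of 2000000 human umbilical cord mesenchymal stem cells (MSC) between day 13 and day 25. All of the cell suspension of 100 µL went under the skin beside the lesion in scMSC mice, while scivMSC mice received 50 µL there and 50 µL into the tail vein. Skin was collected on day 30. All mice therefore carried the same genotype, MSC were given only to mice exposed to DNCB, and no group given the medium without cells is described. The backs were depilated before sensitization and shaved again in the last week.

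S100 proteins are small proteins with a pair of EF-hand loops that bind calcium, and most work as dimers that attach to a target protein when calcium rises. S100a8 and S100a9 pair as calprotectin, which neutrophils and monocytes store in quantity and which stressed keratinocytes also make. Outside the cell it withholds zinc and manganese from microbes and signals through Tlr4 and the receptor Ager, so that it is counted among the alarmins. Most S100 genes lie in a single cluster beside the epidermal differentiation complex, the stretch of genes that builds the cornified layer of the skin.

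The promoters of 3 members are shown because S100a8 and S100a9 moved together most closely and S100a11 was the next member with a higher level in every DNCB library. All 3 lie on chromosome 3 in the GRCm38 build. The stretches are upstream sequence from RefSeq (GRCm38.p6), read 5′ to 3′ on the strand of the gene and ended before the start of the gene in the deposited table. For S100a8 it is chr3:90668821-90668977 on the plus strand, for S100a9 chr3:90695722-90695971 on the minus strand and for S100a11 chr3:93520246-93520487 on the plus strand. Capitals mark matches on either strand to the C/EBP motif TTNNGNAA in S100a8 and S100a9 and to the AP-1 motif TGANTCA in S100a11.
S100a8: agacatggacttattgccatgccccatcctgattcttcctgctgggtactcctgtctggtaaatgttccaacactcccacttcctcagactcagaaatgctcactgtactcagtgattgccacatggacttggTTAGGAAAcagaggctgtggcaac
S100a9: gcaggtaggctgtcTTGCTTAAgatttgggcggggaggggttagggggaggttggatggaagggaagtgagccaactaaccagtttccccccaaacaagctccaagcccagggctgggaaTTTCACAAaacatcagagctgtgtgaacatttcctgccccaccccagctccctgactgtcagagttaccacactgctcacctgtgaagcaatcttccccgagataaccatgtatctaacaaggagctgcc
S100a11: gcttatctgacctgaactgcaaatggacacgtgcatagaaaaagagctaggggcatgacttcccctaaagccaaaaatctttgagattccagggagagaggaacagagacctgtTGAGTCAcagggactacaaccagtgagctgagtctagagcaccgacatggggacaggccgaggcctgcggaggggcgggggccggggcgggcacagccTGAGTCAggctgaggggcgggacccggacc
Positions are counted back from the RefSeq start, with -1 the base before it. The C/EBP match of S100a8 lay at -117 to -110, and those of S100a9 at -236 to -229 and at -130 to -123. C/EBP letters of this kind were present in 36.8% of 32851 upstream windows of 250 bases, so their presence is common. The AP-1 matches of S100a11 lay at -136 to -130 and at -38 to -32, and 6.75% of all windows held at least 1 such match. A STAT motif, TTCNNNGAA, was matched in the window of S100a7a at -169 to -161, against 7.02% of all windows, and an AP-1 match in 1 of the 2 windows of S100a16 at -192 to -186. Unlike the printed stretches, both of these windows lie inside the span of the gene in the deposited table. A kappa B motif was found in 1.41% of windows and in none of those searched for the members. Windows were found for 7 of the 9 members, not for S100a10 and S100a14, no matches overlapped, and a match is a run of letters, not a site shown to be bound.

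Each library held between 63877153 and 75134001 estimated counts, and the group medians were 65586729 (control), 73839280 (DNCB), 73880590 (scMSC) and 74124345 (scivMSC). Levels are given as FPKM, fragments scaled for the length of the transcript and the size of the library, which allows genes of different length to be compared. Krt5, a keratin of the basal epidermis, was abundant in this dorsal skin, with 1065 ± 214 FPKM in control and 2901 ± 426 in DNCB (mean ± SD, n = 3). Of 7 basal keratinocyte genes, Krt14 and Krt5 were called higher in DNCB than in control, Krt15 was called lower and 4 were not called. Of all tested genes, 6.59% were called higher and 7.57% lower in that comparison. Several libraries stood apart within their group for sets of marker genes. Keratins and other genes of the stressed epidermis (Krt6a, Krt6b, Krt16, Krt17 and Sprr1b) summed to 4819 FPKM in library 2 of scivMSC and to 1250 and 1180 in libraries 1 and 3. Genes of the hair shaft and inner root sheath summed to 301 FPKM in library 2 of control, beside 10.2 and 3.35 in libraries 1 and 3. In library 2 of scMSC the same hair genes summed to 16358 FPKM, beside 5775 and 8735. Monocyte and macrophage genes summed to 531 FPKM in library 3 of control against 143 and 150, and to 38.5 in library 3 of scivMSC against 228 and 314.

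The summed level of the 9 genes was about 4 times as high in DNCB as in control skin. The sums were 995, 1070 and 1194 FPKM in control libraries 1 to 3 and 4472, 4744 and 3956 FPKM in DNCB. They were 1186, 1390 and 997 FPKM in scMSC and 1259, 1648 and 1152 FPKM in scivMSC, so the DNCB libraries lay above all others and the remaining groups overlapped. Calprotectin made up most of the excess: S100a8 and S100a9 together took 65.3% ± 5.03 of the sum in DNCB and 13.3% ± 3.16 in control (mean ± SD, n = 3). In scMSC they took 3.01% ± 1.59 and in scivMSC 6.41% ± 3.85. The sum of the other 7 genes was 1509 ± 75.4 FPKM in DNCB, against 1262 ± 207 in scivMSC, 1153 ± 172 in scMSC and 940 ± 59.4 in control. In control, scMSC and scivMSC the highest mean level belonged to S100a11, and in DNCB to S100a9.

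**Figure D1:**
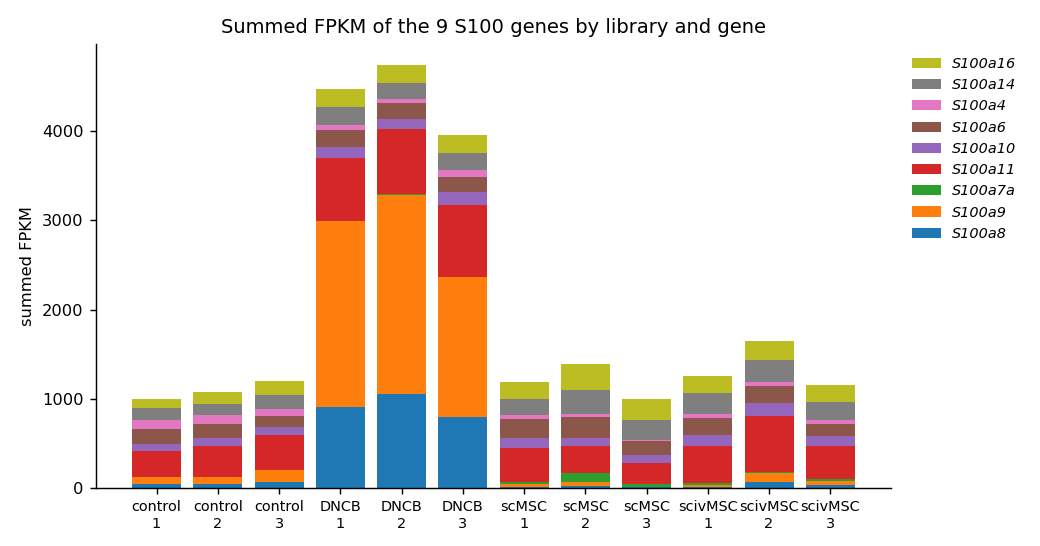
Summed FPKM (vertical axis, from 0) of the 9 S100 genes in each of the 12 libraries (horizontal axis), with 1 color per gene and the value of a single library per bar. The 3 DNCB bars reach 3956 to 4744 and the other 9 lie between 995 and 1648, and S100a8 and S100a9 form the greater part of the DNCB bars.

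Genes were compared with edgeR's quasi-likelihood test on the estimated counts, and a gene was called when its p, adjusted by Benjamini-Hochberg over all 21890 genes tested, was under 0.05 and its log2 fold change was over 1 in size. Against control, 3 of the 9 genes were called higher in DNCB, S100a8, S100a9 and S100a7a, where 6.59% of all tested genes were called higher. Of the 9, 0 were called lower by edgeR, where 7.57% of all tested genes were, and 0 of 9 is near that share. DESeq2 also called 0 of the 9 lower, and 2017 of all 21890 genes tested. At an unadjusted p under 0.05 in edgeR, 0 of the 9 were lower, where 8116 of all tested genes had such a p in either direction. The median log2 fold change of the 9 genes was 0.47, beside 0.02 over all tested genes. Against scMSC, 3 were called higher in DNCB (S100a8, S100a9 and S100a11) and 1 lower (S100a7a), where 3.84% and 4.66% of all tested genes were called higher and lower. Against scivMSC, 2 were called higher (S100a8 and S100a9) and 1 lower (S100a7a), beside 2.33% and 3.13% of all tested genes. Without scivMSC library 1 the number called of all tested genes fell there from 1195 to 476. In scMSC against control, 1 was called higher (S100a7a) and 2 lower (S100a4 and S100a8), beside 5.12% and 4.2%. In scivMSC against control, 1 was called higher (S100a7a) and 1 lower (S100a4), beside 3.5% and 3.35%. The comparisons share groups, so they are not independent of each other.

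**Figure D2:**
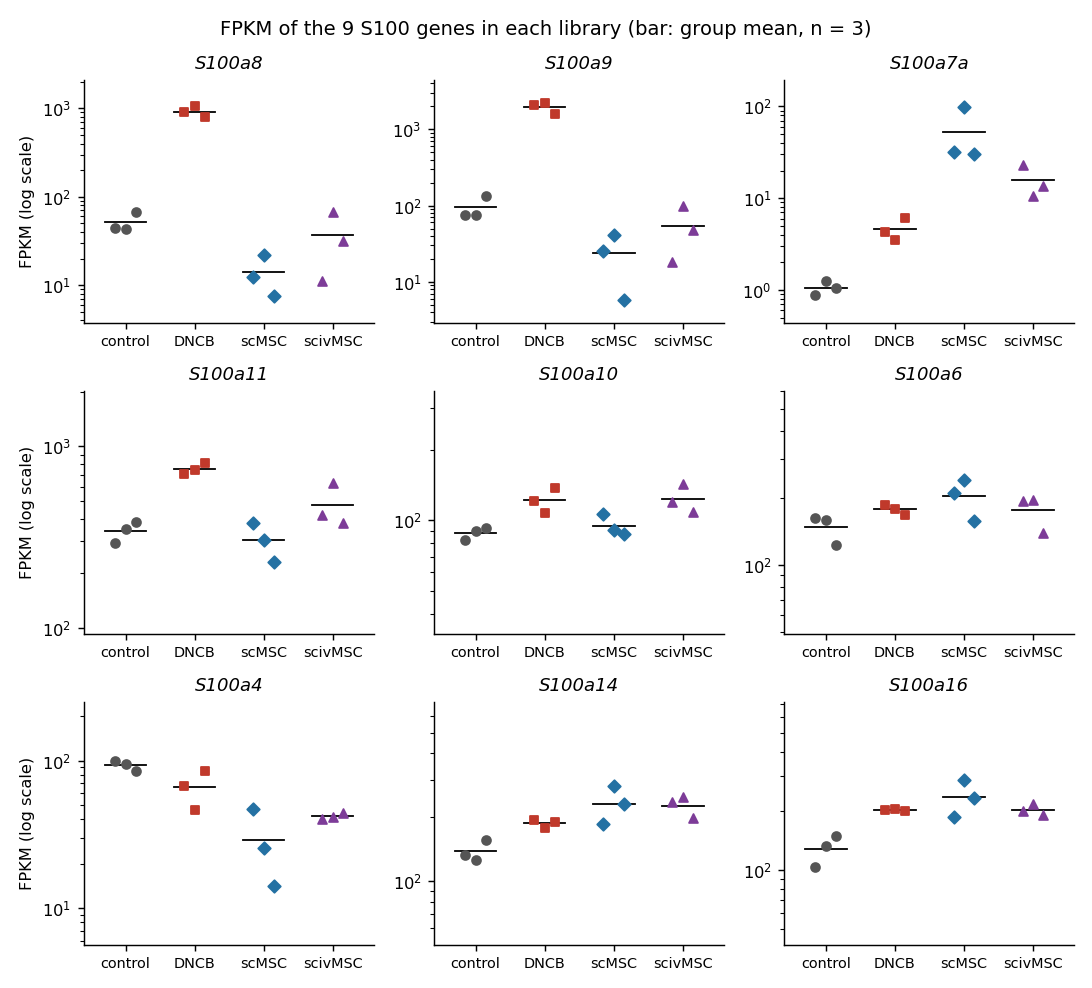
FPKM of each of the 9 S100 genes (vertical axes, log scale with a range of its own per gene) in control, DNCB, scMSC and scivMSC skin (horizontal axes). Points are single libraries and bars are means of 3; S100a8 and S100a9 are above all other libraries in DNCB, and S100a7a is lowest in control and highest in scMSC.

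Among the 9 genes, the calprotectin genes gave the largest differences in the 3 comparisons with DNCB, though not in the MSC groups against control. S100a8, the smaller subunit, had 44.5, 42.7 and 67.8 FPKM in control libraries 1 to 3 and 905, 1053 and 788 FPKM in DNCB. It had 12.5, 21.9 and 7.56 FPKM in scMSC and 11.2, 67.3 and 31.7 FPKM in scivMSC. All 3 DNCB libraries were far above the other 9, the scMSC libraries were all below the control libraries, and the scivMSC libraries overlapped with both. In DNCB, S100a8 exceeded its control level by 3.98 ± 0.60 on the log2 scale (± SE; edgeR, adjusted p = 0.00142). The excess of DNCB was 5.99 ± 0.67 over scMSC (edgeR, adjusted p = 0.0015) and 4.64 ± 0.62 over scivMSC (edgeR, adjusted p = 0.00415). The level in scMSC was lower than in control by a log2 fold change of -2.01 ± 0.56 (edgeR, adjusted p = 0.0301), whereas in scivMSC the difference from control was -0.66 ± 0.54 and was not called (edgeR, adjusted p = 0.476). The scMSC call was lost without control library 1 (adjusted p = 0.0581), 2 (0.0504) or 3 (0.0718) and without scMSC library 1 (0.0785) or 3 (0.0946), while without scMSC library 2 the log2 fold change was -2.61 (edgeR, adjusted p = 0.0271). Without scivMSC library 2, the highest of its group, DNCB exceeded scivMSC by 5.36 (edgeR, adjusted p = 0.00197) and the difference of scivMSC from control was -1.38 (edgeR, adjusted p = 0.151).

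S100a9, the partner subunit, followed S100a8 in nearly every library. It had 75.3, 75.01 and 134 FPKM in control, 2089, 2236 and 1573 in DNCB, 18.3, 97.7 and 47.5 in scivMSC and 25.3, 40.8 and 5.84 in scMSC. Here too every DNCB library was above all others and every scMSC library was below the control libraries. The log2 fold change of DNCB was 4.204 ± 0.74 over control (edgeR, adjusted p = 0.00265), 6.31 ± 0.82 over scMSC (edgeR, adjusted p = 0.00199) and 5.17 ± 0.77 over scivMSC (edgeR, adjusted p = 0.00546). In scMSC the difference from control was -2.10 ± 0.68 and did not pass (edgeR, adjusted p = 0.0531). It passed in 9 of 22 alternatives, among them the fits without scMSC library 2 (-2.86, 0.041), scivMSC library 1 (-2.10, 0.0361) or scivMSC library 2 (-2.10, 0.0443) and DESeq2 (-2.12, 0.00417). Without scMSC library 2 DNCB exceeded scMSC by 7.02, and without scivMSC library 2 it exceeded scivMSC by 5.84 (edgeR, adjusted p = 0.00672 and 0.00531). The 3 DNCB calls of both genes held in all 22 alternatives. The ratio of S100a9 to S100a8 FPKM was 1.81 ± 0.15 in control, 2.14 ± 0.16 in DNCB, 1.53 ± 0.09 in scivMSC and 1.55 ± 0.68 in scMSC (mean ± SD, n = 3). Library 3 of scMSC was the only 1 of the 12 with less S100a9 than S100a8, at a ratio of 0.773. Across the 12 libraries the log2 FPKM of the 2 genes correlated at r = 0.99, a description over libraries that share the 4 groups.

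Marker genes of neutrophils moved with the calprotectin genes. Of 12 neutrophil genes, 11 were called higher in DNCB than in control, 10 than in scMSC and 8 than in scivMSC, with median log2 fold changes of 5.19, 5.67 and 4.33. Of all tested genes, 6.59%, 3.84% and 2.33% were called higher in the same comparisons. Genes such as Ly6g, Cxcr1 and Ltf passed the filter on low values through DNCB, so their calls and these medians are partly set by that filter. The FPKM of the 12 genes summed to 21.9 ± 1.18 in control, 266 ± 57.6 in DNCB, 17.3 ± 7.5 in scivMSC and 10.9 ± 0.68 in scMSC (mean ± SD, n = 3). G0s2 alone averaged 17.2 FPKM in control, 7.35 in scivMSC and 6.56 in scMSC. It was most of the sum in control and scMSC, so correlations with this sum rest in part on G0s2. The median log2 fold change of the 12 genes in scMSC against control was -0.14. There 2 of the 12, G0s2 and Cxcr2, were called lower and 0 higher, beside 4.2% and 5.12% of all tested genes. The most abundant of them in DNCB, Retnlg, had 49.2 to 103 FPKM there and at most 0.36 in control, and G0s2 had 50.8 to 79.0 FPKM in DNCB and 15.99 to 17.9 in control. Ly6g and Cxcr1, which mark mouse neutrophils closely, were at 0 FPKM in all 9 libraries outside DNCB, while Cxcr2 had 0.92 to 2.72, Csf3r 0.49 to 2.47 and G0s2 3.97 to 17.9 FPKM in those libraries, and S100a8 7.56 to 67.8 FPKM. Ly6g was listed at 2.67, 4.93 and 1.83 FPKM in DNCB. Monocyte and macrophage genes summed to 752 ± 62.7 FPKM in DNCB and 275 ± 222 in control, with Lyz2 the most abundant, and 1 of 8, Cd14, was called higher. The stressed epidermis genes were called higher in DNCB than in control in 5 of 5 cases, than in scMSC in 4 of 5 and than in scivMSC in 0 of 5. They summed to 541 ± 41.0 FPKM in control, 8449 ± 893 in DNCB, 2416 ± 2081 in scivMSC and 1033 ± 401 in scMSC. The log2 FPKM of S100a8 correlated over the 12 libraries with the log2 sums of neutrophil (r = 0.98), basal keratinocyte (r = 0.93) and stressed epidermis genes (r = 0.81), and S100a9 likewise (r = 0.96, 0.92 and 0.78). Krt14 and Krt5 made up most of the basal keratinocyte sum in every group, and Krt15, of the same list, was called lower in DNCB than in control. The part of each cell type in the S100a8 and S100a9 levels was not tested. In whole skin, more cells that express a gene and more RNA per cell cannot be told apart, for these and all later results.

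The mouse genes whose pattern was closest to S100a8, among 14373 genes that averaged 1 FPKM or more, were Hcar2 (r = 0.97), a receptor for niacin and ketone bodies, Lcn2 (r = 0.97), the iron-binding lipocalin of neutrophils and epithelia, and Tlr2 (r = 0.97), a receptor for bacterial lipoproteins. The same 3 genes were closest to S100a9, at r between 0.96 and 0.97. Lcn2 had 4.22 ± 1.24 FPKM in control, 26.3 ± 0.51 in DNCB, 2.68 ± 0.47 in scivMSC and 2.02 ± 0.58 in scMSC (mean ± SD, n = 3). Like S100a8, it was called lower in scMSC than in control, with a log2 fold change of -1.22 ± 0.26 (edgeR, adjusted p = 0.00933). Lcn2 was chosen for its pattern in these libraries, so this call is not independent of S100a8. Hcar2 had 96.7 ± 19.3 FPKM in DNCB and 18.6 ± 3.802 in control, and Tlr2 10.2 ± 1.13 and 2.22 ± 0.75.

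S100a7a, the mouse relative of human psoriasin, an antimicrobial protein of keratinocytes, ran the other way after MSC. It had 0.887, 1.26 and 1.05 FPKM in control and 4.28, 3.55 and 6.03 FPKM in DNCB. It had 31.8, 97.5 and 29.9 FPKM in scMSC and 22.8, 10.6 and 13.6 FPKM in scivMSC. The 4 groups did not overlap at any library, in the ascending order control, DNCB, scivMSC and scMSC. DNCB exceeded control by 1.92 ± 0.49 on the log2 scale (edgeR, adjusted p = 0.0162) and lay below scMSC by a log2 fold change of -3.58 ± 0.51 (edgeR, adjusted p = 0.00239). Against scivMSC the log2 fold change of DNCB was -1.77 ± 0.48 (edgeR, adjusted p = 0.0465). Over control, scMSC was 5.50 ± 0.57 higher (edgeR, adjusted p = 0.000777) and scivMSC 3.69 ± 0.52 higher (edgeR, adjusted p = 0.00454). S100a7a and S100a8 were thus both higher in DNCB than in control skin, but S100a7a had its highest and S100a8 its lowest mean in scMSC.

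The difference of S100a7a between DNCB and scivMSC was the least stable of these. It was called in 12 of 22 alternatives and was lost with the replicate number as a block (adjusted p = 0.086), without filtering (0.0534), without any 1 of the 3 control libraries (0.064, 0.0632 and 0.0642) or of the 3 DNCB libraries (0.143, 0.154 and 0.0855), and without scivMSC library 1 (-1.42, 0.154) or 3 (-1.84, 0.094). The call of DNCB over control was lost without control library 1 (1.78, 0.0682) or 3 (1.83, 0.0559) and without DNCB library 3 (1.69, 0.0551). Without scMSC library 2, which had the highest S100a7a, the log2 fold change of DNCB against scMSC was -2.70 and that of scMSC over control 4.58 (edgeR, adjusted p = 0.00551 and 0.0007).

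Genes of the hair shaft and inner root sheath also had their highest levels in scMSC. All 10 genes of that list, which are keratins, were called higher in scMSC than in control, 7 of 10 in scivMSC and 2 of 10 in DNCB, with median log2 fold changes of 7.62, 5.90 and 2.36. The shares of all tested genes called higher were 5.12%, 3.5% and 6.59% in the same order. The hair genes summed to 105 ± 170 FPKM in control, 469 ± 288 in DNCB, 3542 ± 1630 in scivMSC and 10289 ± 5460 in scMSC (mean ± SD, n = 3). Krt71 of the inner root sheath was the most abundant, and 1 marker, Krt33b, was at 0 in 1 control library. In library 2 of control, where the hair genes summed to 301 FPKM, S100a7a was 1.26 FPKM, close to the 0.887 and 1.05 FPKM of the libraries with sums of 10.2 and 3.35. The log2 FPKM of S100a7a correlated with the log2 hair sum at r = 0.92 over the 12 libraries. The part of the hair genes' source in the S100a7a level was not tested.

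The 3 genes closest to S100a7a in pattern, each at r = 0.99 over the 12 libraries, were Tbc1d30, a GTPase-activating protein, Gm10024, a predicted gene, and Otop2, a proton channel. Tbc1d30 had 0.309 ± 0.039 FPKM in control, 0.701 ± 0.096 in DNCB, 1.69 ± 0.54 in scivMSC and 3.55 ± 1.53 in scMSC (mean ± SD, n = 3). Otop2 had 0.034 ± 0.030, 0.771 ± 0.217, 4.01 ± 1.29 and 13.9 ± 11.7 FPKM in the same order. All 3 were called higher in both MSC groups than in control, but they were chosen for this pattern, so the calls restate the choice.

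S100a3, an S100 protein of the hair cuticle that was not among the 9, had a pattern like that of S100a7a (r = 0.95). It had 1.00, 6.37 and 0.13 FPKM in control, 5.87, 3.92 and 18.4 in DNCB, 139, 41.0 and 106 in scivMSC and 182, 508 and 340 in scMSC. Control and DNCB libraries overlapped and both MSC groups were above them. The log2 fold change was 6.92 ± 1.33 for scMSC over control (edgeR, adjusted p = 0.00572), 5.04 ± 1.22 for scivMSC over control (edgeR, adjusted p = 0.0219) and -5.24 ± 1.22 for DNCB against scMSC (edgeR, adjusted p = 0.0181). Unlike S100a7a, S100a3 was not called in DNCB against control, at 1.68 ± 1.06 (edgeR, adjusted p = 0.28), nor against scivMSC, at -3.36 ± 1.12 (edgeR, adjusted p = 0.0957). The gene span of S100a3 in the deposited table overlaps that of S100a2, so reads could be split between them, but S100a2 had at most 0.06 FPKM. S100a3 also overlaps Gm42674, a transcript model on the same strand, and some of its reads could have been assigned there.

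**Figure D3:**
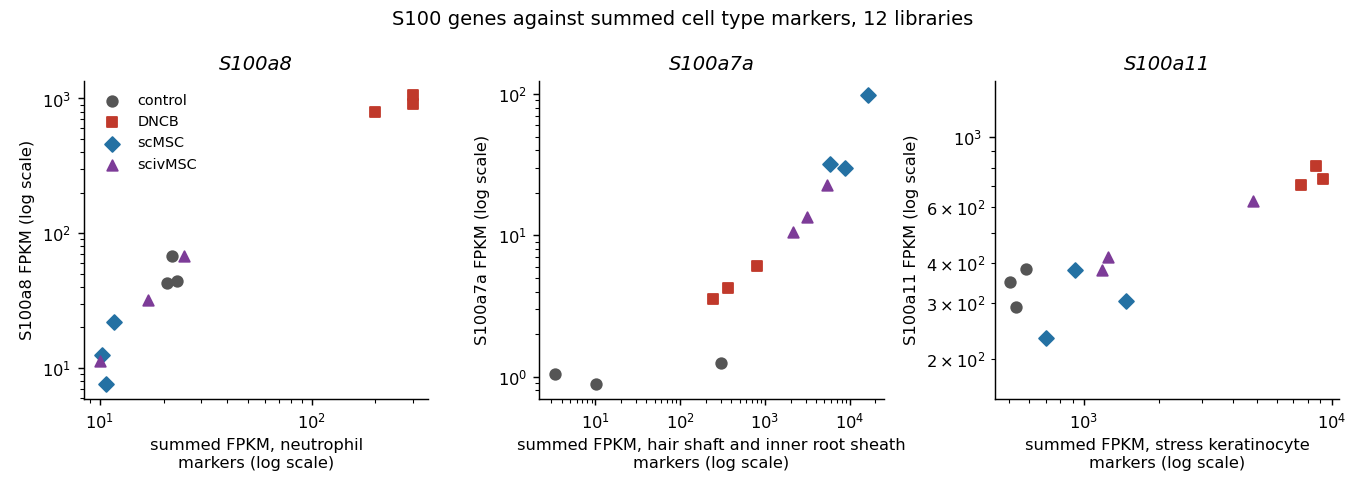
FPKM of S100a8, S100a7a and S100a11 (vertical axes, log scale) against the summed FPKM of neutrophil, hair shaft and inner root sheath, and stressed epidermis (stress keratinocyte) marker genes (horizontal axes, log scale), with 1 point for each of the 12 libraries. DNCB libraries are alone at the upper right for S100a8, and scMSC and scivMSC libraries take that place for S100a7a. For S100a11 library 2 of scivMSC, with a marker sum of 4819 FPKM, lies nearest to the DNCB libraries.

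S100a11 and S100a10 are partners of annexins, proteins that bind membranes when calcium rises: S100a11 of Anxa1 and S100a10 of Anxa2. S100a11 was the most abundant member outside calprotectin, with 292, 350 and 384 FPKM in control, 704, 737 and 810 in DNCB, 418, 627 and 381 in scivMSC and 380, 305 and 232 in scMSC. The DNCB libraries were above all 9 others. DNCB exceeded scMSC by 1.27 ± 0.21 on the log2 scale, and this was called (edgeR, adjusted p = 0.00373) in the main test and in all 22 alternatives. Over control the difference was 0.95 ± 0.20 (edgeR, adjusted p = 0.00688), past the adjusted p but under the minimum fold change. It was 1.13 when libraries were scaled by their totals alone (edgeR, adjusted p = 0.00407) and 1.14 in limma on log2(FPKM + 0.1) (adjusted p = 0.00389), and was then called. Over scivMSC the difference was 0.66 ± 0.20 and did not pass (edgeR, adjusted p = 0.0754). S100a10 had 82.1 to 92.9 FPKM in control, 107 to 137 in DNCB, 108 to 143 in scivMSC and 87.6 to 107 in scMSC. Its difference of 0.28 ± 0.12 between DNCB and control did not pass (edgeR, adjusted p = 0.13), although no DNCB library overlapped with control in FPKM, which is not scaled by TMM. The ratio of S100a11 to S100a10 FPKM was 6.21 ± 0.58 in DNCB, 3.81 ± 0.51 in scivMSC, 3.19 ± 0.48 in scMSC and 3.86 ± 0.29 in control, while their log2 FPKM correlated at r = 0.82 over the 12 libraries.

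The annexins themselves were not called. Anxa1 had 90.8 ± 11.6 FPKM in control, 162 ± 17.8 in DNCB, 153 ± 38.3 in scivMSC and 181 ± 34.6 in scMSC, and Anxa2 had 139 ± 5.10, 212 ± 2.98, 159 ± 26.9 and 121 ± 30.7 in the same order (mean ± SD, n = 3). S100a11 correlated at r = 0.96 with the basal keratinocyte sum at r = 0.91 with the stressed epidermis sum, at 0.84 with the fibroblast sum and at 0.83 with the neutrophil sum over the 12 libraries. The part of these cell types in its level was not tested. In scivMSC, library 2 had the highest S100a11, at 627 FPKM, and the highest stressed epidermis sum, at 4819 FPKM. The genes closest to S100a11 in pattern were Slc25a48, a mitochondrial carrier (r = 0.99), Stfa1, a stefin that inhibits cathepsins (r = 0.98), and Pla2g4d, a phospholipase of the epidermis (r = 0.98). All 3 were called higher in DNCB than in control and than in scMSC, which is no further result, since their pattern was the reason for the choice. For S100a10 the closest were Osmr, the oncostatin M receptor (r = 0.94), Hpgd, which inactivates prostaglandins (r = 0.92), and Trbc2, a constant segment of the T cell receptor (r = 0.90). With the sum of T cell marker genes, however, S100a10 correlated at only r = 0.17.

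S100a4, a protein of fibroblasts and leukocytes that binds myosin and is linked to cell motility, had its highest levels in control. It had 100.0, 95.6 and 85.1 FPKM in control and 66.8, 46.6 and 85.0 FPKM in DNCB. It had 47.2, 25.6 and 14.1 FPKM in scMSC and 40.0, 41.5 and 44.4 FPKM in scivMSC. All 3 control libraries were above every other library, by a narrow margin over DNCB library 3, and the MSC groups overlapped. The log2 fold change was -1.86 ± 0.36 in scMSC against control (edgeR, adjusted p = 0.00583) and -1.33 ± 0.35 in scivMSC against control (edgeR, adjusted p = 0.0318). In DNCB it was -0.69 ± 0.35 and not called (edgeR, adjusted p = 0.176). The scMSC call held in all 22 alternatives. The scivMSC call was lost with the replicate block (-1.32, 0.053) and without control library 1 (-1.31, 0.0834) or 2 (-1.34, 0.0676) or scivMSC library 1 (-1.28, 0.0993), 2 (-1.30, 0.101) or 3 (-1.44, 0.0501). DNCB against scMSC, at 1.17 ± 0.35, missed the threshold (edgeR, adjusted p = 0.0525) and passed in 7 of 22 alternatives, among them DESeq2 (1.18, 0.00975) and the fit without scMSC library 1 (1.66, 0.00888). The gene overlaps a transcript model on the same strand, Gm42674, so some of its reads could have been assigned there.

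Of 6 fibroblast genes, 4 were called higher in DNCB than in control, collagens such as Col1a1 and Col3a1 among them. In DNCB against scMSC 3 were called higher, and against scivMSC 0, at a median log2 fold change of 1.80. In either MSC group against control, 0 of the 6 genes were called. Their sum was 287 ± 57.4 FPKM in control, 2096 ± 163 in DNCB, 590 ± 422 in scivMSC and 447 ± 267 in scMSC (mean ± SD, n = 3). Over all tested genes, 6.59% were called higher in DNCB than in control, 3.84% than in scMSC and 2.33% than in scivMSC. The shares called higher and lower than control were 5.12% and 4.2% in scMSC and 3.5% and 3.35% in scivMSC. The 0 of 6 called there is near these shares. S100a4 correlated with the T cell sum at r = 0.76 and with the hair sum at r = -0.75 over the 12 libraries. The T cell genes were at low levels, summing to 4.43 ± 1.22 FPKM in control, 4.31 ± 0.23 in DNCB, 3.58 ± 0.67 in scivMSC and 2.85 ± 1.07 in scMSC. The genes closest in pattern were Vwa1, a matrix protein (r = 0.92), Crip1, a small LIM-domain protein (r = 0.92), and Ltbp2, a protein of elastic fibers (r = 0.91). Of these Ltbp2 was called lower in scMSC than in control, by a log2 fold change of -1.28 ± 0.40 (edgeR, adjusted p = 0.0499). Ltbp2 was chosen for its likeness to S100a4 in the same libraries, so this call is not independent of S100a4.

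S100a6, calcyclin, was called in no comparison. It had 123 to 163 FPKM in control, 168 to 187 in DNCB, 139 to 196 in scivMSC and 157 to 242 in scMSC. Control libraries were below DNCB libraries in FPKM, but the log2 fold change after TMM scaling was 0.07 ± 0.20 (edgeR, adjusted p = 0.848) and it turned to -0.12 without control library 3. Its log2 fold changes against control were 0.29 ± 0.20 in scMSC and 0.06 ± 0.20 in scivMSC. Its closest genes were Mfge8, a secreted protein that bridges dying cells and phagocytes (r = 0.90), Mrrf, a mitochondrial ribosome recycling factor (r = 0.89), and Fbln7, a fibulin of the matrix (r = 0.89).

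S100a14 and S100a16 are epithelial members that lie beside each other in the cluster, and their levels were lowest in control. S100a14 had 133, 125 and 156 FPKM in control, 194, 178 and 190 in DNCB, 235, 248 and 198 in scivMSC and 186, 280 and 230 in scMSC. S100a16 had 104, 132 and 149 FPKM in control, 201, 204 and 199 in DNCB, 200, 217 and 189 in scivMSC and 186, 287 and 232 in scMSC. In both genes every control library was below every other library in FPKM, which is not scaled by TMM. Scaled by library totals alone, the median log2 fold change of all tested genes over control was 0.20 in DNCB, 0.16 in scMSC and 0.21 in scivMSC. For scMSC over control the log2 fold change was 0.60 ± 0.17 in S100a14 (edgeR, adjusted p = 0.0297) and 0.73 ± 0.18 in S100a16 (edgeR, adjusted p = 0.0193), past the adjusted p and under the minimum fold change. The differences of DNCB from control, 0.26 ± 0.17 and 0.47 ± 0.18, did not pass (edgeR, adjusted p = 0.287 and 0.0827), nor did those of scivMSC, 0.54 ± 0.17 and 0.48 ± 0.18 (edgeR, adjusted p = 0.0561 and 0.108). Against DNCB neither gene passed in scMSC or in scivMSC. The 2 genes correlated with each other at r = 0.92, with S100a7a at r = 0.87 and 0.84, with the hair sum at r = 0.76 and 0.78 and with the sum of skeletal muscle genes, which was highest in control, at r = -0.79 and -0.84. The part of either tissue in their levels was not tested. The closest genes to S100a14 were Arap2, a regulator of small GTPases (r = 0.97), Edc3, a factor of mRNA decapping (r = 0.97), and Hr, the hairless corepressor of the hair cycle (r = 0.96). For S100a16 they were Sdf2l1, an endoplasmic reticulum protein (r = 0.97), Tubb2a, a beta tubulin (r = 0.97), and Fem1b, an adaptor of a ubiquitin ligase (r = 0.97).

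The 2 routes of MSC delivery were compared directly. In scMSC against scivMSC edgeR called 0 of the 9 and 1 of all 21890 genes tested, or 0.00457%. At an unadjusted p under 0.05, 1 of the 9 was higher in scMSC (S100a7a) and 3 were lower (S100a8, S100a10 and S100a11), where 7.5% of all tested genes had such a p in either direction. S100a7a had the largest difference, 1.81 ± 0.48 (edgeR, adjusted p = 0.565), and all 3 scMSC libraries were above the scivMSC libraries. Of the 9, DESeq2 called S100a7a (1.84, adjusted p = 0.03), and it called 114 of all tested genes, or 0.521%. Without scMSC library 2 the difference was 0.94 (edgeR, adjusted p = 0.977). S100a8 and S100a9 differed by -1.35 ± 0.55 and -1.14 ± 0.66, and by -0.63 and -0.46 without scivMSC library 2. Without scMSC library 2 the difference of S100a9 was -1.85.

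**Figure D4:**
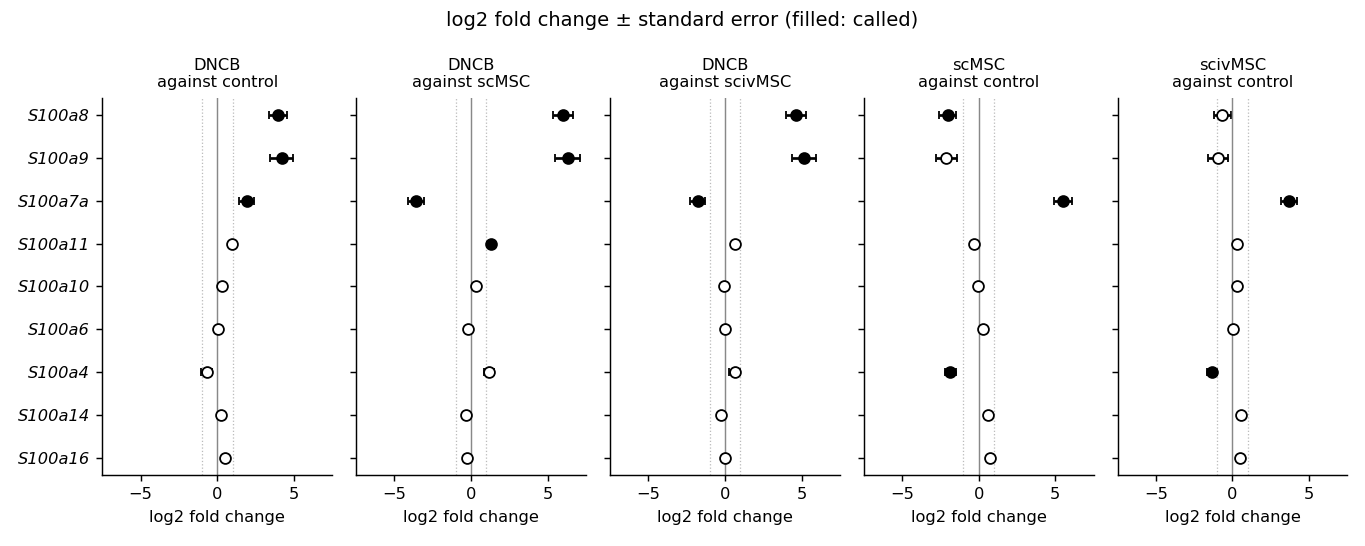
log2 fold change of the 9 S100 genes (horizontal axes, error bars ± 1 standard error, edgeR) in 5 comparisons, with filled points for called genes and dotted lines at -1 and 1. S100a8 and S100a9 lie at 3.98 or more in all 3 DNCB comparisons, S100a7a crosses from 1.92 against control to -3.58 and -1.77 against scMSC and scivMSC, and S100a6, S100a10, S100a14 and S100a16 have no filled point.

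S100a7a, S100a8 and S100a9 lay next to each other along chromosome 3. S100a7a (chr3:90654017-90658669, plus strand) ended 10.3 kb before S100a8 (chr3:90668978-90670035, plus strand), and S100a9 (chr3:90692632-90695721, minus strand) lay 22.6 kb beyond it, all in GRCm38 coordinates of the deposited table. S100a7a and S100a8 were both called higher in DNCB than in control, but against each MSC group S100a7a was called lower in DNCB and S100a8 higher. S100a6 (chr3:90612882-90624181, plus strand), which was not called, was 29.8 kb before S100a7a. S100a11 (chr3:93520488-93526287) and S100a10 (chr3:93555080-93564643), both on the plus strand, lay 28.8 kb apart, at the far side of the epidermal differentiation complex. S100a14 (chr3:90526856-90528837), S100a16 (chr3:90537254-90543151) and S100a4 (chr3:90603771-90606045) lay at the near end, on the plus strand.

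**Figure D5:**
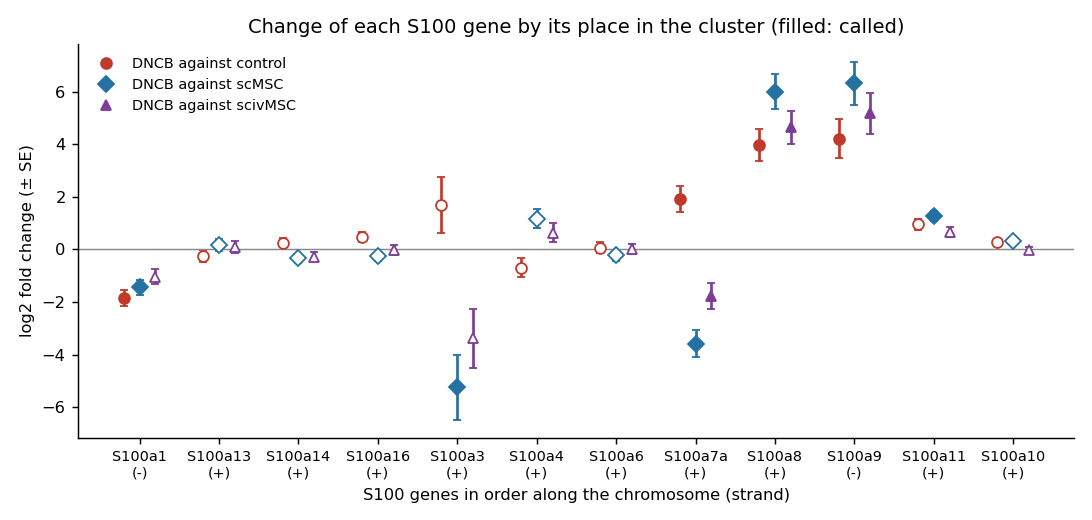
log2 fold change ± standard error (vertical axis, edgeR) of the 12 S100 genes of chromosome 3 that averaged 1 FPKM or more, in their order along the chromosome (horizontal axis, not to distance), for DNCB against control, scMSC and scivMSC; filled points are called. The neighbors S100a7a and S100a8 lie on opposite sides of 0 against scMSC (-3.58 and 5.99) and scivMSC (-1.77 and 4.64).

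Among the 8 other S100 genes in the table, 5 passed the filter on low values. S100a1, an S100 protein of striated muscle, was called lower in DNCB than in control, with 127, 112 and 95.3 FPKM in control and 39.6, 26.7 and 39.9 in DNCB (log2 fold change -1.84 ± 0.30, edgeR, adjusted p = 0.00197). It had 77.0, 114 and 90.8 FPKM in scMSC and 72.2, 45.4 and 96.1 in scivMSC. It was called lower in DNCB than in scMSC, at -1.44 ± 0.30 (edgeR, adjusted p = 0.0107), and not in DNCB against scivMSC, at -1.03 ± 0.30 (edgeR, adjusted p = 0.0585). Skeletal muscle genes summed to 18371 ± 3479 FPKM in control, 4673 ± 928 in DNCB, 6757 ± 3081 in scivMSC and 6438 ± 2285 in scMSC, and 5 of 6 were called lower than control in each of these 3 groups. Over all tested genes, 7.57% were called lower than control in DNCB, 3.35% in scivMSC and 4.2% in scMSC. The part of the muscle genes in the S100a1 level was not tested. S100a13 had 17.7 to 29.6 FPKM and S100b, a glial gene, 0.76 to 1.88 FPKM over the 12 libraries, and neither was called. S100a2, S100a5, S100g and S100a7l2 were at or near 0, with no library above 1.15 FPKM.

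Of 12 receptors and partners of the family, 2 were called higher in DNCB than in control, against 6.59% of all tested genes: Mcam, an adhesion molecule that binds S100a8 and S100a9, and Tlr4. Mcam had 8.41 ± 0.88 FPKM in control, 19.5 ± 1.84 in DNCB, 8.79 ± 1.37 in scivMSC and 8.13 ± 1.45 in scMSC (mean ± SD, n = 3). Its log2 fold change in DNCB was 1.02 ± 0.16 over control (edgeR, adjusted p = 0.00158), 1.23 ± 0.16 over scMSC and 1.14 ± 0.16 over scivMSC (edgeR, adjusted p = 0.00199 and 0.00466). Tlr4 had 0.80, 0.11 and 1.24 FPKM in control and 2.90, 3.26 and 4.06 in DNCB (2.08 ± 0.68, edgeR, adjusted p = 0.0451). The receptor Ager had 0.90 to 1.25 FPKM in control and 1.23 to 1.72 in DNCB and was not called.

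Of 8 genes that alarmin signaling is known to induce, 4 were called higher in DNCB than in control (Tnf, Il1b, Cxcl1 and Cxcl2), 6 than in scMSC and 5 than in scivMSC. In the same comparisons 6.59%, 3.84% and 2.33% of all tested genes were called higher. Il6, called against both MSC groups, had at most 8 estimated counts in any of their libraries. It passed the filter on low values through DNCB, so its calls are partly set by that filter. Il1b had 3.88 ± 2.85 FPKM in control, 162 ± 55.9 in DNCB, 6.30 ± 4.50 in scivMSC and 3.6 ± 2.91 in scMSC. Tnf had 0.89 ± 0.54, 35.5 ± 14.9, 2.26 ± 2.01 and 1.63 ± 0.96 FPKM in the same order. The sums of the list were 66.4 ± 7.63, 510 ± 142, 82.8 ± 17.6 and 60.5 ± 18.3 FPKM, also in that order. Neutrophils and macrophages express several of these genes as well.

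The fused-type S100 proteins, long structural proteins of the cornified layer and hair follicle that begin with an S100 domain, divided in direction. In DNCB against control, 2 of 7 were called higher, Rptn (3.14 ± 0.45, edgeR, adjusted p = 0.00118) and Crnn (3.21 ± 0.72, edgeR, adjusted p = 0.00832). Flg2, a relative of filaggrin, was called lower, with 13.99, 38.3 and 84.0 FPKM in control and 1.74, 1.94 and 1.36 in DNCB (-4.91 ± 0.75, edgeR, adjusted p = 0.00146). Flg2 was also lower in DNCB than in scMSC by a log2 fold change of -3.23 ± 0.69 and than in scivMSC by -3.49 ± 0.70 (edgeR, adjusted p = 0.0125 and 0.016). Tchh, the trichohyalin of the inner root sheath, Tchhl1 and Crnn were called higher in both MSC groups than in control, as S100a7a was. Rptn was also called higher in scivMSC than in control, but not in scMSC. These were 3 of 7 in scMSC and 4 of 7 in scivMSC, beside 5.12% and 3.5% of all tested genes. Crnn was, like S100a7a, higher in DNCB than in control and lower in DNCB than in scMSC (-3.36 ± 0.70, edgeR, adjusted p = 0.0109), but against scivMSC it was not called (-1.67 ± 0.66, edgeR, adjusted p = 0.154). In DNCB against scMSC, 4 of 7 were called lower (Tchhl1, Flg2, Tchh and Crnn) and 1 higher, Rptn, at 3.18 ± 0.45 (edgeR, adjusted p = 0.00239). Of all tested genes, 4.66% were called lower and 3.84% higher there, and 7.57% and 6.59% in DNCB against control. In DNCB against scivMSC, 1 of 7 was called lower, Flg2, and 0 higher, beside 3.13% and 2.33% of all tested genes. Flg itself was not called, at -0.87 ± 0.54 in DNCB against control (edgeR, adjusted p = 0.274).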

How the data were processed

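Total RNA of 12 dorsal skin samples was sequenced, 3 per group, numbered in the labels. Nothing ties a library to a particular mouse, so p-values measure the spread between these samples. The authors deposited FPKM, which they scaled by transcript length and by library. The estimated counts they deposited are whole numbers with no scaling between libraries. The submitters' processing notes list Bowtie, HISAT2 and StringTie, without roles, and the build mm8. The deposited coordinates instead follow GRCm38: 36287 of 36400 identifiers are in GENCODE M21, and 36248 of them overlap their position in it. Of the estimated counts between 1 and 18, 38.9% to 41.2% per library were multiples of 4. A fragment was therefore taken as about 4 counts, and the floor set at 12 counts, or 3 fragments, per library. It covers counting error only.

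Genes averaging 0.1 FPKM or more entered edgeR 4.0.16 (R 4.3.3) on the estimated counts, with TMM factors of 0.887 to 1.06, 1 model of 4 groups, 6 comparisons and a common biological coefficient of variation of 0.420. Standard errors came from the F statistic. On data simulated for DNCB against control over 21890 genes, 74.0% of genes changed 4-fold, 98.0% changed 8-fold and 94.0% changed 16-fold were called, and 4 unchanged genes. Over all 200 changed genes, those changed less than 4-fold included, 74.5% were called. Genes with low counts were not among those changed. Alternatives were DESeq2 1.42.0, limma 3.58.1 on log2(FPKM + pseudocount), other scalings and filters, a replicate block, and each library left out.

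The members and all lists were chosen with earlier results of these data known. Named genes are the 9 members, the other S100 genes, for each member the 3 genes with the highest Pearson r of log2(FPKM + 0.1), and up to 4 abundant genes of each list with its counts; some further members of lists, such as Ly6g and Krt33b, were named after their values were seen. Besides the lists in the text, 3 were summed without a further result: endothelial (33.6 ± 6.69 FPKM in control, 53.4 ± 5.81 in DNCB), adipocyte (254 ± 66.5 and 168 ± 53.9) and glia (53.6 ± 3.87 and 26.7 ± 6.66). Suprabasal keratinocyte genes summed to 8160 ± 3311 and 8696 ± 2081 FPKM, and red blood cell genes to 162 ± 15.2 and 340 ± 219. Of 7 suprabasal genes, Lor and Sbsn were called lower in DNCB than in control, and Lor also lower than in both MSC groups. Of all tested genes, 7.57% were called lower in DNCB than in control.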

Additional observations from a re-analysis of the deposited data

How the results depend on the processing

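The alternatives gave 1188 values for the 9 genes, of which 1126 kept direction and side of the threshold. Of the rest, 24 lost a call, 21 gained one and 17 changed sign, each of the last at a difference near 0. Without the minimum fold change, 5 of the 9 passed in scMSC against control, beside 18.5% of all tested genes. In scMSC against scivMSC, DESeq2 called 1 of the 9, S100a7a, and 114 of all tested genes, where edgeR called 1. In scivMSC against control, leaving out 1 library at a time gave 1 to 2 called of the 9, and 843 (without scivMSC library 2, 3.85%) to 1798 (without scivMSC library 3, 8.22%) over all tested genes, of which the full fit called 1500. Without control library 1 or scivMSC library 1 it called 845 and 964. With the replicate block 1 of the 9 was called there, S100a7a, beside 1344 genes, or 6.14%. For DNCB against scivMSC the range was 476 (without scivMSC library 1) to 1442 genes (without scivMSC library 2), and the full fit called 1195. For DNCB against scMSC it was 1222 (without scMSC library 2) to 2008 (without scMSC library 1), and the full fit called 1861. Same-numbered libraries shared only a number: in 18 pairs their deviations correlated at -0.24 to 0.17, and 1 pair exceeded 0.1.

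S100a16 in DNCB against scivMSC turned to 0.0078 in DESeq2. S100a10 in scMSC against control turned to 0.10 under scaling by library totals, and to 0.10, 0.10 and 0.10 in limma with pseudocounts of 0.1, 1 and 0.01. Leaving out 1 library at a time gave -0.12 to 0.12 for S100a6 in DNCB against control, -0.13 to 0.14 in scivMSC against control and -0.12 to 0.072 in DNCB against scivMSC. It gave -0.12 to 0.064 for S100a10 in DNCB against scivMSC and -0.14 to 0.0074 in scMSC against control, -0.17 to 0.22 for S100a14 in scMSC against scivMSC, and -0.037 to 0.017 for S100a16 in DNCB against scivMSC. Scaling by library totals moved the median of all tested genes to 0.20, 0.16 and 0.21 in DNCB, scMSC and scivMSC against control. The balance of calls over all tested genes moved with it. In DNCB it went from 1442 higher and 1656 lower to 2020 and 1301. It went from 1120 and 920 to 1477 and 670 in scMSC, and from 766 and 734 to 1134 and 566 in scivMSC. A pseudocount of 1 in limma lowered S100a7a against control to 4.50 in scMSC and 2.95 in scivMSC, since control is near 1 FPKM. All 9 genes exceeded the floor in every group; S100a2, S100a5, S100g and S100a7l2 were at it in at least 2 groups.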
